A study of Mus musculus with 12 samples.

Results

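Genes of the megakaryocyte and platelet lineage were examined in RNA-seq of cells sorted from mouse fetal liver (FL). The genes were chosen by name, and all 9 were found among the 38127 genes counted: Pf4, Gp1ba, Gp1bb, Gp5, Gp6, Gp9, Vwf, Nfe2 and Gfi1b. Each passed the filter on low counts in every comparison, so 9 of 9 were tested. The levels were set against the erythroid genes of the same libraries to ask how far the sorted Kit+ erythroid progenitors carried RNA of the sister lineage.

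The series held 12 libraries from C57BL/6 embryos, 3 for each of 4 populations, all sorted as Ter119-CD45- cells after depletion of Ter119+ and CD45+ cells. P2 cells were CD54-CD31-Kit+CD24+ cells of embryonic day (E) 14.5. CD324+ cells were CD54+CD31- cells of E14.5 and take their name from epithelial cadherin, which marks hepatoblasts. CD31+ cells were CD54+CD31+ cells of E14.5, and the last population was CD54+CD31- cells of E18.5. No group carried a mutation or treatment. The labels call the 3 libraries of a group biological replicates, and the study describes the E14.5 samples as coming from separate litters.

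Megakaryocytes and erythroid cells arise from a shared progenitor, and many regulators, GATA1, GFI1B and NFE2 among them, act in both lineages. Platelets stop bleeding through the GPIb-IX-V receptor, whose subunits are encoded by Gp1ba, Gp1bb, Gp9 and Gp5 and whose ligand is von Willebrand factor, the product of Vwf. GPVI, encoded by Gp6, is the platelet receptor for collagen, and Pf4 encodes platelet factor 4, a chemokine stored in alpha granules. NFE2 is the large subunit of a transcription factor needed for platelet release, and GFI1B is a repressor needed for both megakaryocyte and red cell development. Vwf is also made by endothelial cells, and CD31 is carried by megakaryocytes and platelets as well as by endothelium.

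The DNA before the start sites of the genes is shown because the platelet genes moved together across the libraries while Gfi1b did not move with them. RefSeq promoter windows, 250 bases before to 50 bases after the start on GRCm38.p6, were matched for 7 of the 9 genes, and Nfe2 and Vwf had no entry. The windows were searched on both strands for the GATA letters AGATAA or AGATAG or TGATAA or TGATAG, for the ETS letters CCGGAA or CAGGAA, and for the NFE2 letters TGAGTCA, which are also an AP-1 site. The GATA letters lay in 6 of the 7 windows and in 29.8% of all 32851 windows. The ETS letters lay in 2 of the 7 and in 41.4% of all windows, and TGAGTCA in 0 of the 7 and in 5.20% of all windows. In the 250 bases before each start printed here, 5′ to 3′ on the strand of the gene, capitals mark the letters found.
Gp1ba, chr11:70638872-70639121, plus strand: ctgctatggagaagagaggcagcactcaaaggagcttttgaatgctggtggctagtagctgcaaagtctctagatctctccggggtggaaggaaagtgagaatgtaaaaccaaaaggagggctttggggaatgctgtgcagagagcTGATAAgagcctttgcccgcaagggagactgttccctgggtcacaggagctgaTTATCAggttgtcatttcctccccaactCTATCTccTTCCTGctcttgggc
Gp5, chr16:30310782-30311031, minus strand: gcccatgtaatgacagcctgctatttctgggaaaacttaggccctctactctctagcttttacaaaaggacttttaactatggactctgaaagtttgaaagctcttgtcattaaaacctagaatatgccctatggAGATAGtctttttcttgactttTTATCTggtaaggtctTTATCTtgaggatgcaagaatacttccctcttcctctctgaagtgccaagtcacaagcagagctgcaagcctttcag
Gp6, chr7:4397745-4397994, minus strand: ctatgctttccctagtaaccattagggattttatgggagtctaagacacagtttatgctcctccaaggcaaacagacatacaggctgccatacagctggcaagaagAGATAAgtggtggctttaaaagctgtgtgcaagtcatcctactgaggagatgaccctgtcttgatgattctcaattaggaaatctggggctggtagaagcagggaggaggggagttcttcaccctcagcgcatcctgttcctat
Gfi1b, chr2:28621983-28622232, minus strand: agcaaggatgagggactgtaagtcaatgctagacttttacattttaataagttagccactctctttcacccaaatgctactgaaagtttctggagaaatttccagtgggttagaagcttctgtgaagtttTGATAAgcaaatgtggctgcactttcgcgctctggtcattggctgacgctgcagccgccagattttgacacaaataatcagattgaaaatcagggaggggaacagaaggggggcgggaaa
Pf4, chr5:90772185-90772434, plus strand: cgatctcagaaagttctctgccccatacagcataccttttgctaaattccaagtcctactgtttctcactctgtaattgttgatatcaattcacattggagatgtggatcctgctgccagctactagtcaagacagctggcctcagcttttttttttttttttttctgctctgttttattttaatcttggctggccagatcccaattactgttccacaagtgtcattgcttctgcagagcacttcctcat
Gp1ba and Gp5 each held 3 GATA matches before the start, and Gp6 and Gfi1b 1 each. The matches of Pf4, GATA at base 36 and ETS at base 14 after the start, lay outside the stretch printed. Gp1bb held 1 GATA match, 22 bases before its start, and Gp9 none of these letters. A match is a run of letters and was not tested for binding.

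Levels are given as CPM, the counts of a gene per 1000000 counts of its library, scaled by the trimmed mean of M-values (TMM). Total counts per library ranged from 40714017 to 64368883. Kit stood at 299 to 359 CPM in P2 libraries and at 68.8 CPM or less elsewhere. Pecam1, which encodes CD31, stood at 542 to 645 CPM in CD31+ libraries and Cdh1, which encodes CD324, at 439 to 491 CPM in CD324+ libraries. Alb, the hepatoblast gene for albumin, had a mean of 44757 CPM in CD324+ cells. In the E18.5 libraries, 16 genes of lung epithelium summed to between 12008 and 25834 CPM, against 170 to 185 CPM in CD324+ libraries, which goes against the liver label. Within the P2 libraries, replicate 2 stood apart for endothelial genes, as described with the platelet genes.

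Pf4 had 9.99, 29.2 and 10.8 CPM in P2 replicates 1, 2 and 3, and 12.9, 18.9 and 17.9 CPM in CD324+ cells. It had 68.2, 190 and 150 CPM in CD31+ cells, and 5.82, 8.48 and 4.33 CPM in E18.5 cells. Every CD31+ library stood above every library of the other groups, and the P2 and CD324+ libraries overlapped. The group means (± SD, n = 3 each) were 136 ± 62.0 CPM for CD31+, 16.7 ± 10.9 for P2, 16.6 ± 3.26 for CD324+ and 6.21 ± 2.10 for E18.5.

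Gp1ba, which encodes the subunit that binds von Willebrand factor, had 10.3, 17.7 and 11.2 CPM in P2 cells and 6.65, 7.46 and 7.82 CPM in CD324+ cells. It had 45.3, 76.6 and 58.9 CPM in CD31+ cells and 3.61, 5.73 and 2.13 CPM in E18.5 cells. The 4 groups did not overlap in any pair, with CD31+ cells highest and P2 cells next.
Gp5, the subunit cleaved by thrombin, had 3.84, 7.64 and 3.37 CPM in P2 cells and 1.75, 1.51 and 2.07 CPM in CD324+ cells. In CD31+ cells it had 7.78, 18.9 and 12.2 CPM, and in E18.5 cells 0.67, 1.01 and 0.33 CPM. Here too no pair of groups overlapped, and the order was the same.
Gp9, needed for the receptor to reach the surface, had 3.58, 3.98 and 2.27 CPM in P2 cells, 2.15, 2.20 and 2.00 CPM in CD324+ cells, 7.69, 17.2 and 12.3 CPM in CD31+ cells and 0.74, 1.27 and 0.42 CPM in E18.5 cells. Its lowest P2 library lay just above its highest CD324+ library.
Gp1bb had 0.71, 3.33 and 0.83 CPM in P2 cells, 1.36, 1.64 and 1.1 CPM in CD324+ cells, 7.09, 16.3 and 9.44 CPM in CD31+ cells and 0.60, 0.72 and 0.35 CPM in E18.5 cells. P2 replicates 1 and 3 lay below the CD324+ libraries and replicate 2 above them. Its values are uncertain, since 1902 bases (91.1%) of its annotated exon sequence are shared on the same strand with Sept5, which had 6 to 11 counts in P2 libraries and 331 to 521 in CD324+ libraries.

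Gp6 had 1.38, 2.44 and 0.79 CPM in P2 cells, 1.16, 1.92 and 1.78 CPM in CD324+ cells, 6.95, 13.7 and 9.11 CPM in CD31+ cells and 0.60, 1.33 and 0.28 CPM in E18.5 cells. The P2, CD324+ and E18.5 libraries overlapped, and only the CD31+ libraries stood clear of the rest.
Vwf had 21.3, 37.1 and 21.2 CPM in P2 cells, 13.04, 13.2 and 15.1 CPM in CD324+ cells, 189, 246 and 196 CPM in CD31+ cells and 18.2, 21.7 and 14.0 CPM in E18.5 cells. It was the member for which E18.5 cells had a higher mean, 18.0 ± 3.87 CPM, than CD324+ cells, 13.8 ± 1.13 CPM (SD, n = 3 each).

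The transcription factor genes ran in another order. Nfe2 had 50.9, 48.7 and 41.6 CPM in P2 cells, 18.8, 25.4 and 21.9 CPM in CD324+ cells, 20.0, 21.7 and 22.9 CPM in CD31+ cells and 3.75, 7.41 and 7.05 CPM in E18.5 cells. Gfi1b had 150, 146 and 159 CPM in P2 cells, 15.8, 24.0 and 19.9 CPM in CD324+ cells, 17.1, 23.8 and 18.0 CPM in CD31+ cells and 1.38, 6.24 and 4.85 CPM in E18.5 cells. For both genes every P2 library lay above, and every E18.5 library below, all libraries of the other groups, while CD324+ and CD31+ libraries overlapped. As a share of the CD31+ mean, the P2 mean was 219% for Nfe2 and 772% for Gfi1b, but 12.3% for Pf4, 12.6% for Vwf, 15.5% for Gp6, 21.7% for Gp1ba, 14.8% for Gp1bb, 26.5% for Gp9 and 38.1% for Gp5. Without P2 replicate 2 the share was lower for each platelet gene. It was 7.66% for Pf4, 10.1% for Vwf, 10.9% for Gp6, 17.9% for Gp1ba, 7.04% for Gp1bb, 23.7% for Gp9 and 27.8% for Gp5. For Nfe2 it was then 215% and for Gfi1b 787%.

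**Figure D1:**
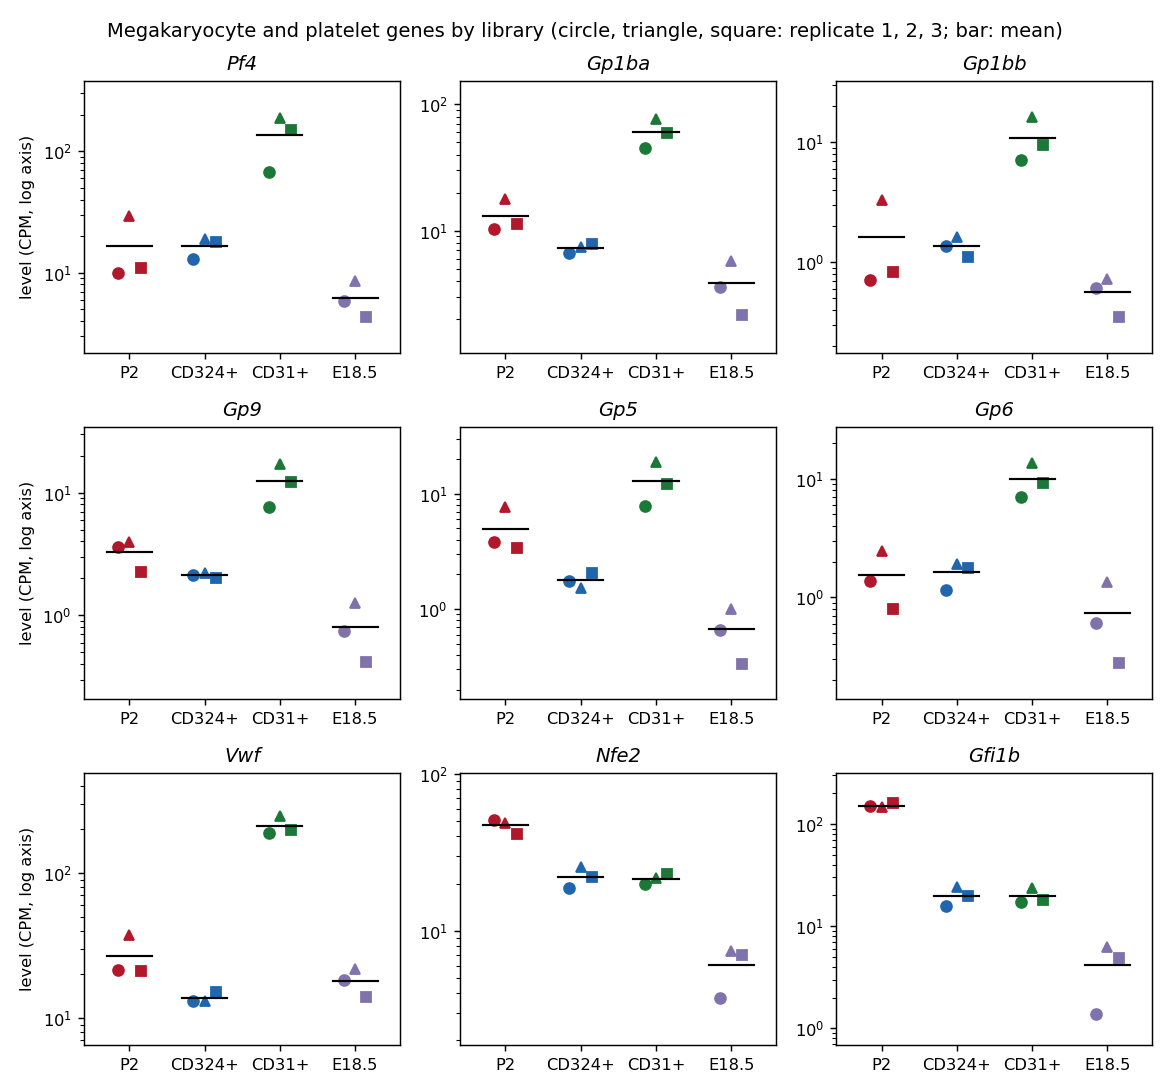
Level of each of the 9 genes in CPM (log axis) in the 12 libraries, with replicates 1, 2 and 3 as circle, triangle and square, E18.5 standing for the E18.5 CD54+CD31- cells and a bar at the mean of the 3. The 7 platelet genes are highest in CD31+ libraries, and Nfe2 and Gfi1b in P2 libraries, where Gfi1b has a mean of 152 CPM.

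Per kilobase of exon, the order of the genes within P2 cells was Gfi1b, with 82.9 ± 3.75 CPM per kilobase, Pf4 with 23.1 ± 15.1, Nfe2 with 15.8 ± 1.63, Gp1ba with 4.81 ± 1.48, Gp9 with 3.72 ± 1.01, Gp5 with 2.25 ± 1.07, Vwf with 1.65 ± 0.57 and Gp6 with 0.26 ± 0.14 (SD, n = 3 each). In CD31+ cells Pf4 led, with 189 ± 86.1 CPM per kilobase, ahead of Gp1ba with 22.2 ± 5.78, Gp9 with 14.1 ± 5.38, Vwf with 13.1 ± 1.92 and Gfi1b with 10.7 ± 1.99. Gp1bb was left out of this comparison because of its shared exons. The length used joined all annotated exons of a gene, from 721 bases for Pf4 to 16064 for Vwf. A shorter transcript in these cells would raise the value of a gene. The order is therefore specific to this length, and lengths of single transcripts were not tried. Without P2 replicate 2 Pf4 stood at 14.4 CPM per kilobase in P2 cells, below Nfe2 at 15.5, so the place of Pf4 rested on that library.

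P2 cells were compared with CD324+ cells to set the erythroid progenitors against the other E14.5 cells that lacked CD31. Under the quasi-likelihood test of edgeR, with p adjusted by Benjamini-Hochberg over 15461 genes, P2 cells had more of 5 of the 9 and less of 0. Of all genes 70.0% passed, 33.8% higher and 36.1% lower, and for 75.3% the P2 and CD324+ libraries did not overlap. Gfi1b was 7.53-fold higher (log2 fold change 2.91, SE 0.17, adjusted p = 1.17e-07) and Nfe2 2.11-fold higher (1.08, SE 0.13, adjusted p = 2.23e-05). Gfi1b belongs to a list of genes that the study drew from these same libraries, so its difference is not independent evidence.
Among the platelet genes, Gp5 was 2.73-fold higher in P2 cells (log2 fold change 1.45, SE 0.39, adjusted p = 0.00714), Vwf 1.90-fold higher (0.93, SE 0.21, adjusted p = 0.00248) and Gp1ba 1.77-fold higher (0.82, SE 0.23, adjusted p = 0.00954). With the authors' own library factors, which shifted the median log2 fold change of all genes by -0.26, Gp1ba had 0.57 and an adjusted p of 0.0570, and over 15 alternatives its adjusted p ran from 0.00134 to 0.0570.
Gp9 did not pass, with a log2 fold change of 0.61 (95% interval -0.08 to 1.30, adjusted p = 0.102). Neither did Gp1bb (0.24, interval -1.03 to 1.5), Pf4 (-0.0095, interval -1.01 to 0.99) or Gp6 (-0.097, interval -1.02 to 0.82), and these wide intervals do not show that the groups were alike. In bulk RNA, fewer cells of a type and less RNA per cell cannot be told apart.

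All 7 platelet genes had their highest P2 level in replicate 2. The ratio of replicate 2 to the mean of replicates 1 and 3 had a median of 2.12 over these 7 genes, from 1.36 for Gp9 to 4.33 for Gp1bb, against a median of 1.00 over 15310 genes, of which 7.88% were above 2. It was 1.05 for Nfe2 and 0.94 for Gfi1b. Of 22 endothelial genes, 22 were above 2, with a median of 4.92, and their summed level was 128 and 200 CPM in P2 replicates 1 and 3 and 693 CPM in replicate 2. The erythroid genes had a median ratio of 0.94. Replicate 2 was also highest for all 7 platelet genes in CD31+ and E18.5 cells, and for 4 of 7 in CD324+ cells. The endothelial sums of replicates 1, 2 and 3 were 15913, 16182 and 15135 CPM in CD31+ cells. In E18.5 cells they were 362, 421 and 343 CPM. The part of endothelial or other cells in the P2 levels was not tested.
Without P2 replicate 2 the same 5 genes passed, with log2 fold changes of 0.55 for Gp1ba, 1.00 for Gp5, 0.62 for Vwf, 1.06 for Nfe2 and 2.95 for Gfi1b. Pf4 then had -0.68, Gp1bb -0.83, Gp6 -0.60 and Gp9 0.45, none of which passed. Of these endothelial genes 18 of 22 were called higher when P2 cells were set against CD324+ cells, with a median of 2.31, and 16 of 22 without P2 replicate 2, with a median of 1.07. Over all genes 33.8% were higher, and 4970 of 16014 without that replicate. The endothelial genes summed to 15135 to 16182 CPM in CD31+ libraries and 123 to 149 CPM in CD324+ libraries.

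**Figure D2:**
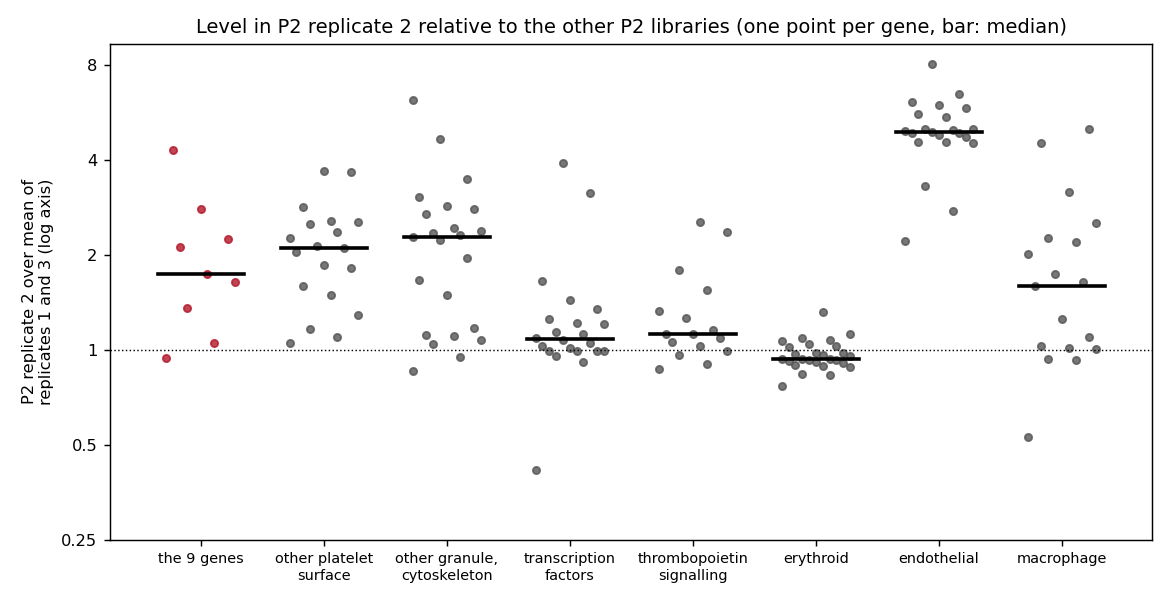
Ratio of the level in P2 replicate 2 to the mean of P2 replicates 1 and 3 (log axis), with a point for each gene of the 9 and of 7 gene lists and a bar at the median. Endothelial genes lie highest, with a median of 4.92, the platelet lists near 2 and erythroid genes just below 1, and Cd163, at 0 in replicate 2, is not drawn.

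The platelet genes were not present in the same proportions in each group. Gp5 had 38.4, 26.2 and 31.1 counts per 100 Pf4 counts in the P2 libraries, against 13.6, 7.97 and 11.6 in CD324+ libraries, 11.4, 9.98 and 8.14 in CD31+ libraries and 11.4, 11.9 and 7.67 in E18.5 libraries. The P2 libraries thus stood above all 9 others in this ratio, replicate 2 included. Gp1ba had 103, 60.6 and 104 counts per 100 Pf4 counts in P2 libraries, 39.3 to 66.4 in the other E14.5 libraries and 49.2 to 67.6 in E18.5 libraries. Gp9 had 35.9, 13.6 and 21.0 in P2 libraries and 8.18 to 16.7 in all others. For both genes only P2 replicate 2 overlapped the other groups. For Gp6 the ratio was 7.28 to 13.8 in P2, 9.01 to 10.1 in CD324+, 6.07 to 10.2 in CD31+ and 6.39 to 15.7 in E18.5 libraries, which overlapped. These ratios are descriptions from at least 20 counts per gene and library and were given no test.

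**Figure D3:**
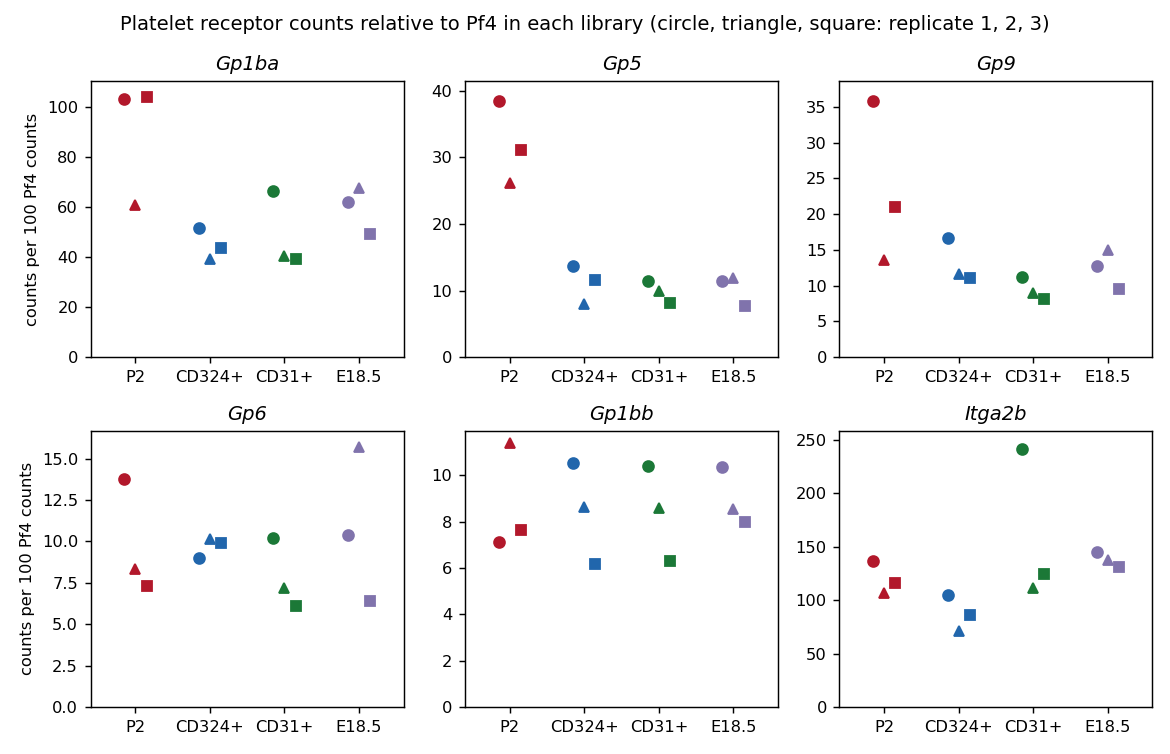
Counts of 6 platelet receptor genes per 100 Pf4 counts in each library (replicates 1, 2 and 3 as circle, triangle and square, E18.5 standing for the E18.5 CD54+CD31- cells). Gp5 is at 26.2 to 38.4 in P2 libraries and at 13.6 or less in all others, while Gp6 and Gp1bb overlap between groups.

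CD31+ cells were compared with CD324+ cells, which share CD54 and age with them and differ in CD31. All 7 platelet genes were higher in CD31+ cells and Nfe2 and Gfi1b did not pass, where 65.6% of 15461 genes passed, 31.7% higher and 34.0% lower, and 69.5% had libraries that did not overlap (edgeR, Benjamini-Hochberg). Vwf was 15.2-fold higher (log2 fold change 3.92, SE 0.23, adjusted p = 1.48e-07), Gp1ba 8.20-fold (3.03, SE 0.24, adjusted p = 1.65e-06) and Pf4 8.16-fold (3.03, SE 0.47, adjusted p = 2.39e-04). Gp1bb was 7.97-fold, Gp5 7.22-fold, Gp6 6.09-fold and Gp9 5.81-fold higher. Nfe2 had a log2 fold change of -0.04 (95% interval -0.32 to 0.24) and Gfi1b of -0.025 (interval -0.38 to 0.33), intervals that exclude a 2-fold difference in either direction.
CD31+ replicate 1 had the lowest level of all 7 platelet genes within its group and replicate 2 the highest, from 68.2 to 190 CPM for Pf4. With the replicate number as a block, the same count of 7 passed. That fit also held the P2 libraries, whose deviations did not correlate above 0.1 in every same-numbered pair with either group. It was therefore not a paired test of CD31+ and CD324+ cells alone.

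P2 cells differed from CD31+ cells in all 9 genes, where 73.7% of genes passed, 34.3% higher and 39.4% lower in P2 cells, and 77.1% had libraries that did not overlap. The comparison uses the same P2 and CD31+ libraries as those above. Nfe2 was 2.17-fold higher in P2 cells (log2 fold change 1.12, SE 0.12, adjusted p = 1.55e-05, edgeR) and Gfi1b 7.67-fold higher (2.94, SE 0.17, adjusted p = 1.64e-07). The 7 platelet genes were lower, Pf4 8.21-fold, Vwf 7.98-fold and Gp6 6.51-fold, down to Gp5, 2.64-fold. Without P2 replicate 2 the log2 fold change moved from -3.04 to -3.71 for Pf4 and from -2.76 to -3.82 for Gp1bb, and 9 of 9 still passed.

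The CD54+CD31- cells of E18.5 were set against those of E14.5 in a fit of their 6 libraries, where 69.4% of 15863 genes passed, 35.9% higher and 33.5% lower at E18.5, and 77.8% had libraries that did not overlap. In this test 6 of the 9 genes were lower at E18.5 and 1 was higher. Gfi1b was 4.22-fold lower (log2 fold change -2.08, SE 0.50, adjusted p = 0.00890, edgeR) and Nfe2 3.20-fold lower (-1.68, SE 0.26, adjusted p = 0.00131). Pf4 was 2.34-fold lower (-1.23, SE 0.27, adjusted p = 0.00580), and Gp5, Gp9 and Gp1bb were between 2.15-fold and 2.33-fold lower. Vwf was 1.48-fold higher (0.57, SE 0.17, adjusted p = 0.0236), although its libraries overlapped, and it kept this call in 8 of 14 alternatives. Gp1ba (-0.75, 95% interval -1.57 to 0.07) and Gp6 (-0.94, interval -2.29 to 0.41) did not pass.
The count of 7 fell to 4 with the authors' library factors and to 5 with the replicate number as a block. It fell to 3 without CD324+ replicate 1 or 2 and to 4 without CD324+ replicate 3 or E18.5 replicate 3, and was 7 without E18.5 replicate 1. Nfe2, Gfi1b and Pf4 passed in all 14 alternatives. Lung epithelial genes rose in the same comparison, 15 of 16 with a median log2 fold change of 11.06, endothelial genes rose in 20 of 22 with a median of 2.32, and erythroid genes fell in 17 of 27. Of 19 hepatoblast genes 6 fell and 3 rose, with a median of -0.91. E18.5 replicate 1 stood apart, with a hepatoblast sum of 7489 CPM against 54185 and 70656 CPM in replicates 2 and 3, a lung sum of 25834 against 12008 and 12086 CPM, and an erythroid sum of 572 against 1302 and 1190 CPM. The part of these lists in the lower levels was not tested, and age and the mixture of tissues cannot be told apart.

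**Figure D4:**
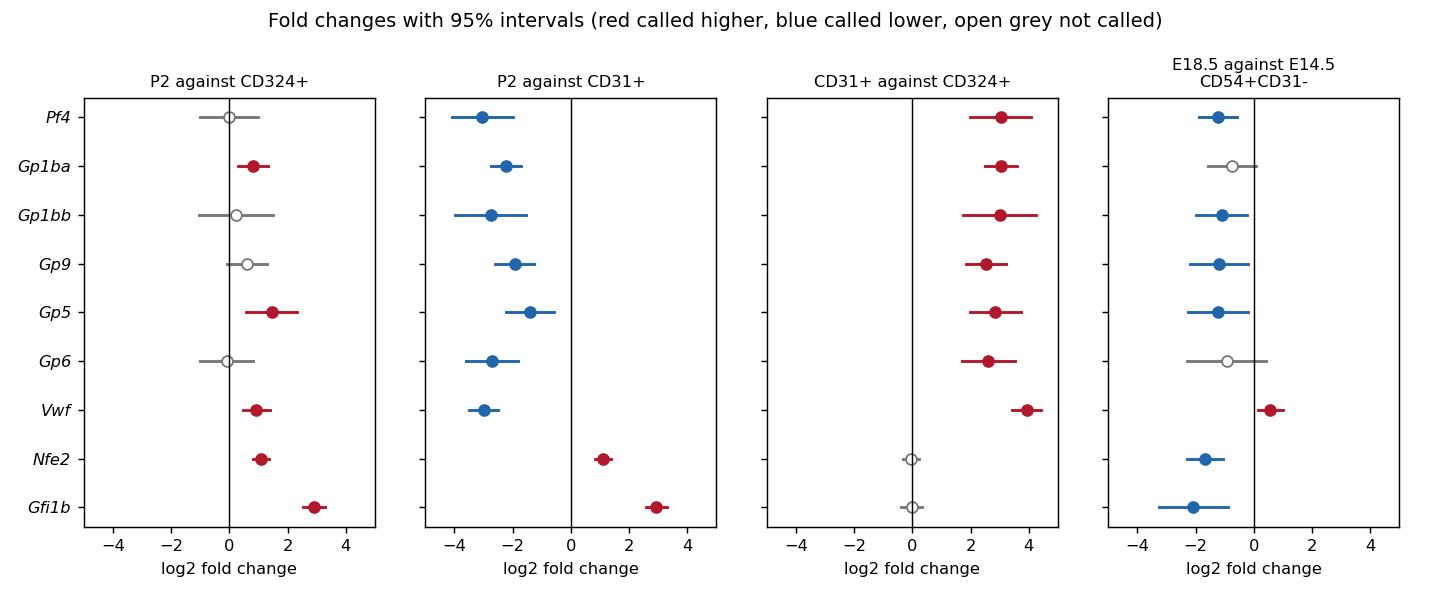
Log2 fold change of each gene with its 95% interval in 4 comparisons, red where it was called higher in the first group, blue where lower and open grey where it did not pass (edgeR, adjusted p of 0.05). Nfe2 and Gfi1b lie opposite to the 7 platelet genes between P2 and CD31+ cells and at 0 between CD31+ and CD324+ cells.

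The order of the group means was CD31+, P2, CD324+ and E18.5 cells for Pf4, Gp1ba, Gp1bb, Gp9 and Gp5. For Pf4 and Gp1bb the place of P2 cells rested on P2 replicate 2, without which their P2 means were 10.4 and 0.77 CPM, below the CD324+ means of 16.6 and 1.37 CPM. In it, P2 and CD324+ cells were not called apart for Pf4, Gp1bb and Gp9, nor CD324+ and E18.5 cells for Gp1ba. For Gp6 the order after CD31+ cells was CD324+, P2 and E18.5 cells, with no neighbours among these called apart. For Vwf the order of the means was CD31+, P2, E18.5 and CD324+ cells. Its step from P2 to E18.5 cells (log2 fold change 0.56, adjusted p = 0.0365, edgeR) kept its call in 6 of 14 alternatives, with libraries that overlapped, a value of 0.24 (adjusted p = 0.228) without P2 replicate 2 and -0.12 with the authors' factors. P2 and E18.5 cells differ in age and phenotype, and there P2 cells had more of 8 of the 9, where 80.6% of 16643 genes passed, 36.6% higher and 44.0% lower, and 83.5% had libraries that did not overlap. That count was 5 without P2 replicate 2, without E18.5 replicate 3 or with the authors' factors. Between CD31+ and E18.5 cells 9 of 9 were higher in CD31+ cells, where 68.5% of genes passed, 38.8% higher and 29.7% lower, and 71.1% had libraries that did not overlap.

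Other genes of the megakaryocyte surface were also examined. Against CD324+ cells, CD31+ cells had 16 of the 19 tested higher and 2 lower, and the median log2 fold change was 2.95, beside -0.03 over all genes. Of all genes 31.7% were higher and 34.0% lower. In the same comparison 22 of 22 endothelial genes were higher, with a median of 7.85, and 6 of 7 mast cell and basophil genes, with a median of 2.92, and their part in the change was not tested. Itga2b and Itgb3, which encode the fibrinogen receptor of platelets, had 3.72 and 2.78, and Selp, for P-selectin, 2.80. The largest changes beyond these were in Itga6 (4.84), P2ry1 (4.02), Clec1b (4.01) and Itga2 (3.95). Cd9 (-1.12) and Ptprj (-0.77) were lower, and Fcer1g, the signalling chain bound to GPVI, had 0.35 and did not pass.
Between P2 and CD324+ cells 3 surface genes were higher and 3 lower, with a median of -0.30, where 33.8% and 36.1% of all genes were. Ltbp1 (2.75), P2ry1 (2.18), a receptor for ADP, and Itga6 (1.05) rose, and Cd9 (-4.31), Fcer1g (-3.0) and Itga2 (-1.12) fell. Ltbp1 was on this list although its product is secreted. Itga2b, an early marker of the lineage, had 0.41, Itgb3 -0.30 and Selp -1.35, and none of the 3 passed. Without P2 replicate 2 the count that was lower rose from 3 to 9, with a median of -0.79, where 5552 of 16014 genes were lower. P2 cells had 17 of the 19 lower than CD31+ cells, with Itga2b at -3.31, where 39.4% of all genes were lower.

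The list of platelet granule, cytoskeleton and secretion genes held 23, among them signalling genes such as Lat. In CD31+ against CD324+ cells 20 were higher and 1 lower, with a median of 2.40, where 31.7% and 34.0% of all genes were. Lat (4.16), Mmrn1 (3.66) and Rab27b (3.09) led, while F5, for coagulation factor V, which hepatocytes also make, was lower (-3.32). Ppbp, a chemokine gene beside Pf4, had 2.16 and Fermt3, for the integrin activator kindlin-3, 1.53. In P2 against CD324+ cells 4 were higher and 10 lower, with a median of -0.53, and 15 were lower without P2 replicate 2. Over all genes 33.8% were higher and 36.1% lower there, and 5552 of 16014 were lower without that replicate. Fermt3 was higher there (2.39) and is, as Gfi1b is, on the study's list from these libraries. F5 (-5.82), Actn1 (-4.15), Tuba8 (-3.53) and F13a1 (-2.77) fell most, and Ppbp had -0.53 and did not pass. In P2 against CD31+ cells 20 were lower and 2 higher, where 39.4% and 34.3% of all genes were.

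The transcription factors and cofactors split. Against CD324+ cells P2 cells had 13 of the 22 tested higher and 5 lower (median 0.99), and against CD31+ cells 9 higher and 13 lower (median -1.32). Over all genes 33.8% were higher and 36.1% lower in the first comparison, and 34.3% and 39.4% in the second. Gata1, the shared regulator of both lineages, averaged 176 ± 7.35 CPM in P2 and 25.5 ± 8.72 CPM in CD324+ libraries (SD, n = 3 each), a log2 difference of 2.77. Gata2 (2.92), Tal1 (2.60), Runx1 (2.53), Lmo2 (2.47) and Ldb1 (2.07) were also higher, of which Gata1, Tal1 and Lmo2 are on the study's list.
Fli1, an ETS factor that drives megakaryocyte genes, averaged 362 ± 28.1 CPM in CD31+, 12.8 ± 9.34 in P2 and 12.6 ± 1.69 in CD324+ libraries (SD, n = 3 each). P2 replicate 2 had 3.14 times the mean Fli1 level of P2 replicates 1 and 3. The near-equal P2 and CD324+ means thus rested on that library. Fli1 is expressed in endothelial cells as well. Klf1, the erythroid factor known to oppose Fli1, averaged 33.3 ± 8.47 CPM in CD31+, 397 ± 43.6 in P2 and 56.3 ± 18.7 in CD324+ libraries (SD, n = 3 each).
The small Maf genes, whose products pair with NFE2, did not move as one. Against CD324+ cells, Mafk was higher in P2 cells (1.79), Mafg had 0.13 and did not pass, and Maff was lower (-3.20). Among the partners of GFI1B, Rcor1 (1.35) and Kdm1a (0.32) were higher in P2 cells, and Gfi1, the gene of its close relative, was lower (-3.04) at a mean of 0.08 CPM. Zfpm1, which encodes the GATA1 cofactor FOG1, was listed at 0 in all 12 libraries, as were Lyl1 and the erythroid genes Alas2 and Icam4. By single-cell PCR the study found Zfpm1 in some FL cells of a cluster that held Kit+CD24- cells. These zeros are therefore not read as absence of the RNA.

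Thpo, which encodes thrombopoietin, the main cytokine of megakaryocytes, was at 16.8 ± 1.65 CPM in CD324+ cells and 0.19 ± 0.07 CPM in P2 cells (SD, n = 3 each), a log2 fold change of -6.48. Of 16 genes of thrombopoietin signalling, P2 cells had 5 higher and 5 lower than CD324+ cells did (median 0.07), close to the shares over all genes of 33.8% and 36.1%. Gab2 (2.29) was higher, and Cish (-3.46), Socs3 (-2.65) and Socs1 (-1.77) were lower.

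Of 27 erythroid genes, P2 cells had 25 higher and 1 lower than CD324+ cells (median log2 fold change 1.68) and 25 higher than CD31+ cells (median 2.57). Over all genes 33.8% were higher and 36.1% lower in the first comparison, and 34.3% and 39.4% in the second. Ermap (2.96), Tspo2 (2.83), Klf1 (2.80) and Epor (2.78), the erythropoietin receptor gene, led the first comparison, and Slc4a1 (-0.91) was the gene that was lower. Klf1, Epor, Gata1, Rhag, Ermap, Ank1, Add2, Tspo2 and Car1 are on the list the study drew from these libraries, so the count is not independent evidence of its direction. Their summed level was 8154 to 8899 CPM in P2 libraries, 2154 to 3259 in CD324+ libraries, 1454 to 1866 in CD31+ libraries and 572 to 1302 in E18.5 libraries, with Alas2 and Icam4 listed at 0 in every library. Nfe2 and Gfi1b were highest in P2 cells, where these sums were highest, and lowest in E18.5 cells, where the sums were lowest. The E18.5 libraries also held lung epithelial genes. Between CD31+ and CD324+ cells Nfe2 and Gfi1b did not follow the erythroid list. Of its 27 genes 19 were lower and 0 higher in CD31+ cells (median -0.58), where 34.0% and 31.7% of all genes were. Nfe2 (-0.04) and Gfi1b (-0.025) did not pass there. Of 19 macrophage genes, P2 cells had 17 lower than CD324+ cells did, where 36.1% of all genes were lower.

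**Figure D5:**
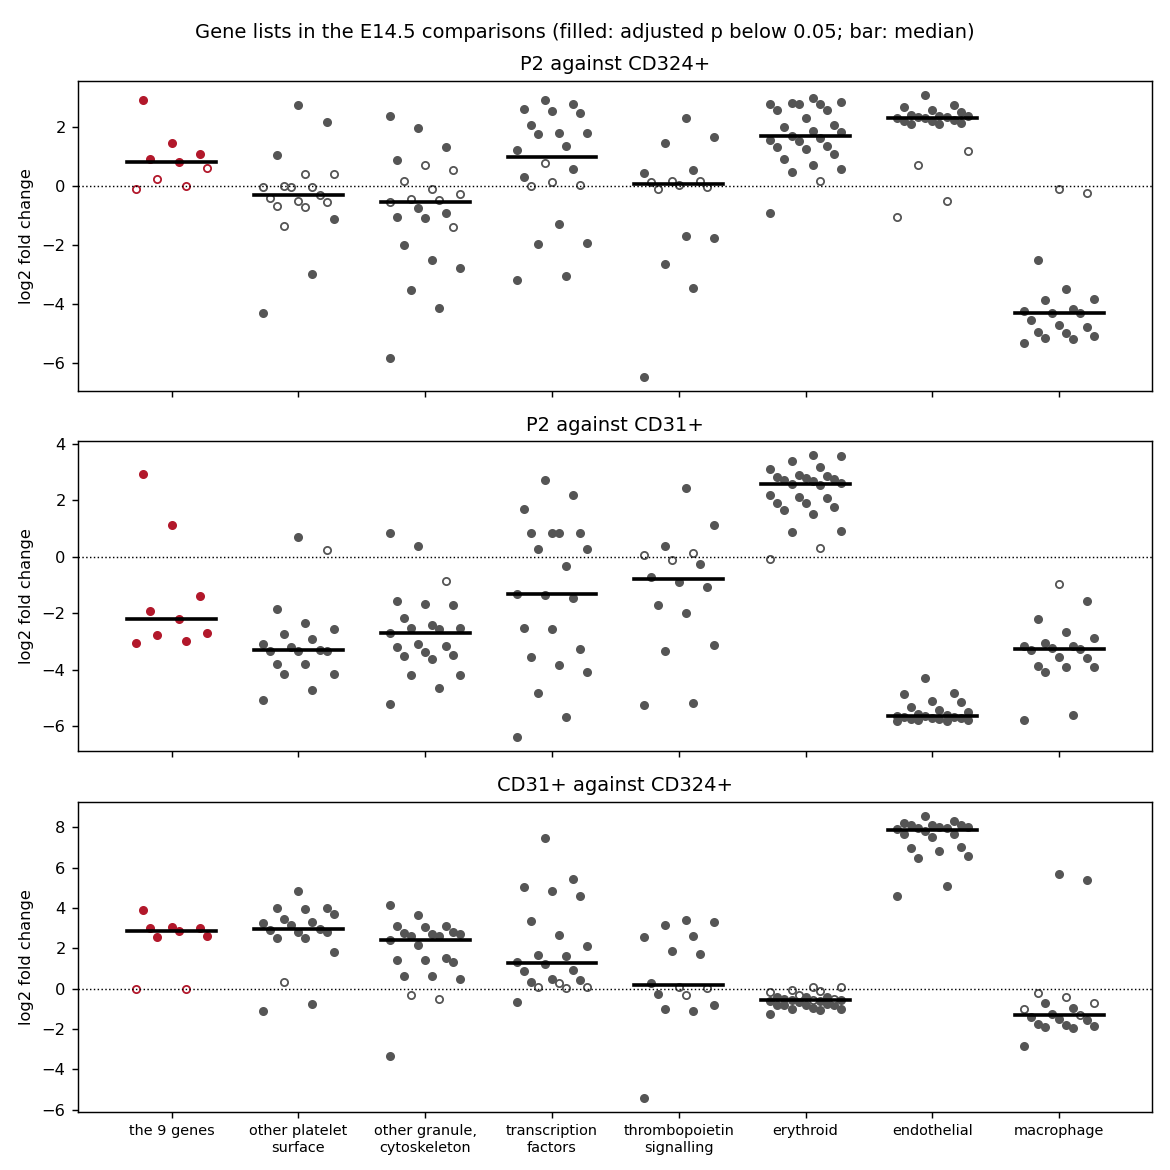
Log2 fold changes of the 9 genes (red) and of 7 gene lists in the 3 comparisons of E14.5 cells, with filled points at an adjusted p below 0.05 (edgeR) and a bar at the median. Erythroid genes are higher and platelet surface genes lower in P2 cells when set against CD31+ cells (medians 2.57 and -3.31).

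Across the 12 libraries, which fall into 4 groups and so share the pattern between groups, Pearson correlations of log2(CPM + 1) among the 7 platelet genes ran from 0.877 to 0.986, with a median of 0.952 over 21 pairs. With Nfe2 or Gfi1b they ran from 0.071 to 0.582, and between Nfe2 and Gfi1b the value was 0.961. Among the 3 genes most like each, of 16643, were Gp6 and Slamf1 for Pf4, Treml1, Gp9 and Kcnj5 for Gp1ba, and Gp1ba, Gp9 and Rgs18 for Gp5. For Gp6 they were Slamf1, Alox12 and Pf4, for Gp9 Gp1ba, Treml1 and Gba2, and for Gp1bb Serpinb2, Slc35d3 and Pf4. Vwf stood nearest to Egfl7, an endothelial gene, B3gnt3 and Gap43 (0.993 to 0.994). Nfe2 stood nearest to Pask, Fen1 and Ncapd3 (0.995 to 0.997), of which Fen1 serves DNA replication and Ncapd3 chromosome condensation, and Gfi1b to Add2, Mns1 and Gata1 (0.996 to 0.997).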

How the data were processed

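RNA-seq of 12 libraries was analysed. The authors digested livers with liberase, extracted RNA, removed ribosomal sequences with Zap R and made libraries with a stranded SMARTer Pico kit. The submitters' notes name cutadapt 1.11, STAR 2.5.0a, GRCm38, featureCounts 1.4.6-p3, R 3.5.1 and DESeq2. Strand setting, annotation and treatment of multiply aligned reads in counting are not given in the sources used here. The authors deposited raw counts per gene as whole numbers, and beside them a score, the count times 1 factor per library. Counts were used for all tests, and the score only to read that factor.

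Tests used edgeR 4.0.16 in R 4.3.3 (TMM, filterByExpr, two-sided quasi-likelihood F test, Benjamini-Hochberg adjusted p below 0.05). The 9 E14.5 libraries were fitted together, the 6 CD54+CD31- libraries apart, and all 12 for P2 or CD31+ against E18.5. Standard errors came from the fold change and F. GENCODE vM21 gave exon lengths, and 37932 of 38127 identifiers matched. Tested on simulated P2 against CD324+ counts of 15461 genes, edgeR called 45 of 100 genes changed 2-fold, 98 of 100 changed 4-fold and 10 unchanged genes. The simulation gave every gene the same spread, a negative binomial dispersion of 0.05, and left all other genes alike between groups. Of the real genes 70.0% passed, so these counts are not the sensitivity of the tests reported here. Over all genes with at least 10 counts in every library, replicate pairs differed by more than sampling noise. The parts of library spread and of sampling noise were not separated for single genes. Gp6 had as few as 20 counts in a library (E18.5 replicate 3).

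Deviations of same-numbered libraries correlated by 0.349, 0.354 and 0.181 between CD324+ and CD31+ cells, all above the limit of 0.1 set for pairing. Libraries of different number were not correlated, so whether the numbers pair these groups was not tested. The fold changes, intervals and p-values reported for them come from a fit without pairing. Other groups did not meet the limit of 0.1 in every pair. The genes, 10 gene lists and rules were chosen with earlier results of these data known. Named besides the 9 genes were their partners, the 4 largest called changes per list, sort antigens and the 3 most alike genes, of which 1 gene is not reported here. G6b and Trf stand for Mpig6b and Tf, and Ahsp had no match. Alternatives were DESeq2 1.42.0, its size factors, the authors' factors, other filters, fits of other library sets, genes above 1% of counts left out, a replicate block and each library left out.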

Additional observations from a re-analysis of the deposited data

How the results depend on the processing

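The genes called in each of the 6 comparisons stayed within 1.5 times under every alternative, and the members called stayed at 9 of 9 for P2 against CD31+, 7 for CD31+ against CD324+ and 9 for CD31+ against E18.5. For P2 against CD324+ they were 4 with the authors' factors and 4 to 6 in all. For E18.5 against E14.5 CD54+CD31- the count of 7 became 4 with the authors' factors and 3 to 8 with a library left out, and for P2 against E18.5 the count of 8 became 5 with the authors' factors and 5 to 9 with a library left out. The cause was not tested. The authors' factors moved the median log2 fold change of all genes by -0.26 (P2 against CD324+), -0.37 (P2 against CD31+), 0.11 (CD31+ against CD324+), 0.23 (E18.5 against E14.5), -0.70 (P2 against E18.5) and -0.32 (CD31+ against E18.5), and the share of called genes higher in P2 cells from 48.3% to 38.2%, from 46.6% to 33.9% and from 45.4% to 30.0% against CD324+, CD31+ and E18.5 cells.

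Some values changed sign, of which only that of Vwf had been called. Between P2 and CD324+ cells Pf4 had 0.0082 with all 12 libraries and -0.68 to 0.24 with a library left out. Gp1bb had -0.027 with the replicate block and -0.83 to 0.57 with a library left out, and Gp6 -0.60 to 0.23. Between CD31+ and CD324+ cells Nfe2 had 0.0046 with 10 counts in every library, 0.071 with the authors' factors and -0.16 to 0.014 with a library left out. Gfi1b had 0.018 with 10 counts, 0.0011 with DESeq2 and with its size factors, 0.082 with the authors' factors and -0.27 to 0.069 with a library left out. Vwf, called at 0.56 between P2 and E18.5 cells, had -0.12 with the authors' factors. With the replicate block the members called were 5, 9, 7, 5, 9 and 9 in the 6 comparisons. Of all values, 719 kept direction and side of the threshold, 38 fell short of it, 7 newly passed it and 19 changed sign.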
